A study of Mus musculus with 12 samples.

Results

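Melanoma-only distal elements are stretches of accessible chromatin that were found in untreated B16F10 cells, a mouse melanoma line, that had no counterpart in 4T1 cells, a mouse mammary carcinoma line, and that lay away from gene starts. The data were 12 ATAC-seq libraries, in which a transposase inserts adapters into open DNA, each deposited as a list of peaks. The groups were B16F10 cells given 0.1 µM DAC for 48 h, untreated B16F10 cells, 4T1 cells given 1 µM DAC for 48 h and untreated 4T1 cells, with 3 libraries in each. DAC is the usual abbreviation of decitabine, a cytosine analogue that traps DNA methyltransferases. The 2 established lines received different doses, dead cells were taken out before transposition, and no label says that replicates came from separate cultures, so that p-values measure the spread between these libraries only.

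Peaks of all 12 libraries on chromosomes 1 to 19 and X that overlapped by at least 1 bp were merged into 179441 regions. A region was kept when all 3 untreated B16F10 libraries had a peak in it, none of the 6 4T1 libraries did, and it lay more than 1000 bp from the 5′ end of every one of 21755 protein-coding genes. This left 11859 elements, chosen by these peak calls, 37.95% of the 31248 distal regions called in all 3 untreated B16F10 libraries. The calls in untreated B16F10 and in 4T1 libraries chose the elements, so their presence in the melanoma line and absence from the carcinoma line are no result. At any distance from genes 12178 regions passed the calls, 6.79% of all 179441. For comparison, 14942 shared distal elements were called in all 3 untreated B16F10 and all 6 4T1 libraries, and 41140 carcinoma-only distal elements were called in all 3 untreated 4T1 libraries and in no B16F10 library.

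Distal accessible elements include enhancers, which are bound by transcription factors and can act on promoters at a distance. Melanocytes and melanoma cells come from the neural crest, and their enhancers are known to be bound by SOX10, a factor of the SOX family, together with MITF, the basic helix-loop-helix regulator of pigment genes, and TFAP2 factors. Mammary carcinoma cells in culture are known to use AP-1, the dimers of FOS and JUN proteins that respond to growth signals. Cytosine methylation is mostly a silencing mark at CpG-rich promoters, while distal elements are poor in CpG.

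Regions of 200 bases around the summit of strong elements near melanocyte genes are shown, on the plus strand of mm10, with matches to SOX (ACAATGG or ACAAAGG), AP-1 (TGACTCA), TFAP2 (GCCNNNGGC), M-box type (TCACGTGA or TCATGTGA) and E-box (CACGTG) letters in capitals on either strand. The M-box type letters TCACGTGA contain the E-box letters. The strongest element within 100 kb of the gene was taken, and 6 such elements are printed because they give examples of the motifs compared further on. The element 7.56 kb upstream of Gpnmb, a melanosome glycoprotein gene, at chr6:49028149-49028348, holds an AP-1 match, and the one at chr15:79101619-79101818, 62.9 kb from the 5′ end of Sox10, holds a SOX and a TFAP2 match. The elements 94.1 kb from Ngfr, the neural crest receptor gene, at chr11:95682325-95682524, and in an intron of Erbb3, a neuregulin receptor gene, at chr10:128588041-128588240, hold 1 SOX match each. The element labelled Sox10 is nearest to another gene, Micall1, 6.54 kb away, and the one labelled Ngfr to Phb, 14.9 kb away. The element 46.9 kb upstream of Ednrb, the endothelin receptor of melanoblasts, at chr14:103891688-103891887, holds a TFAP2 match, and the element in an intron of Mlana, a melanosome protein gene, at chr19:29703004-29703203, holds none of these letters. Elements taken in the same way near Tspan10 and Dct are not printed and hold none of these letters either. The share of all elements with each of the main motifs is given with the motif comparison.
Gpnmb: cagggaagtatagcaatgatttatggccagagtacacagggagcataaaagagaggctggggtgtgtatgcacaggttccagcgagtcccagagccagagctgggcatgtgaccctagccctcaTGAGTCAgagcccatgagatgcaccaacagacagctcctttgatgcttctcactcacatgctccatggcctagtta
Sox10: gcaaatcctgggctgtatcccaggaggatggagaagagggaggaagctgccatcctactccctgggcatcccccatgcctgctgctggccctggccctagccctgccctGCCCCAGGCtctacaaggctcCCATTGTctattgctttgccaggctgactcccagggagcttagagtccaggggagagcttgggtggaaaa
Ngfr: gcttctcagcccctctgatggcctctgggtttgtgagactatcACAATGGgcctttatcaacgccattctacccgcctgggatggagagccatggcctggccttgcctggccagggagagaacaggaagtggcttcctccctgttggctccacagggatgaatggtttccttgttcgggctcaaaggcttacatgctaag
Erbb3: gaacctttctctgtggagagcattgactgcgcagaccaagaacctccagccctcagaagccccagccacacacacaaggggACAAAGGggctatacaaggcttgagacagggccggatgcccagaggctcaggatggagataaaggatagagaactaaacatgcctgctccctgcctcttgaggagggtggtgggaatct
Ednrb: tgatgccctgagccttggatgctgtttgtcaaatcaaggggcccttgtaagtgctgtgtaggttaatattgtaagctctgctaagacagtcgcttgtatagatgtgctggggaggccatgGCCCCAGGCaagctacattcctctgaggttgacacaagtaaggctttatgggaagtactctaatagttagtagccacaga
Mlana: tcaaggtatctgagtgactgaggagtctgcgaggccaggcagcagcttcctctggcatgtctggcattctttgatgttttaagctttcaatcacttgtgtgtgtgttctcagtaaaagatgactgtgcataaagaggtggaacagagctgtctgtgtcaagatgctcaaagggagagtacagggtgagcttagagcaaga

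Also shown are 2 of the 3 strongest elements with no peak in any DAC-treated B16F10 library. The first lies within the annotated introns of Tacc2 and Fgfr2 at chr7:130670371-130670570 and the second 16.5 kb upstream of Zfr at chr15:12101075-12101274. Neither holds any of these letters. Both are weaker than every element shown above, and the printed sequences are examples only.
Tacc2: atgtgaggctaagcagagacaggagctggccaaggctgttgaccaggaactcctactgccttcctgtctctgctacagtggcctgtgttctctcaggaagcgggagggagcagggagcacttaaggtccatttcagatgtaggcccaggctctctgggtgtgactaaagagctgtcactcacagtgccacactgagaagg
Zfr: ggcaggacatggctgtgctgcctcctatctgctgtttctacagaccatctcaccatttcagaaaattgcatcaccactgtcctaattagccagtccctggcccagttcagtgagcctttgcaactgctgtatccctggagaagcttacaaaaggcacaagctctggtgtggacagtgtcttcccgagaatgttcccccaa

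On chromosomes 1 to 19 and X the lists held 54007 to 58443 peaks in DAC-treated B16F10 libraries and 49602 to 53295 in untreated ones, against 107938 to 118438 in DAC-treated and 89727 to 94174 in untreated 4T1 libraries. The 4T1 lists, which had to lack a peak, were longer than every B16F10 list. The list of the second DAC-treated B16F10 library was the longest of its line and named 21 sequences, all assembled chromosomes, against 85 to 91 names in the other 5 lists. The deposited lists hold no read counts, so the depth behind a call is unknown. The strength of a peak is given as its percentile by −log10 q-value within its own library, and the rank of an element is the lowest of its 3 percentiles in untreated B16F10 cells.

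The elements were of middling strength, with a median rank of 38.8 against 53.9 for shared distal elements. Their median width was 730 bp, against 890 bp for shared and 588 bp for carcinoma-only elements. They lay farther from genes than shared elements, at a median distance of 41531 bp against 22911.5 bp, and about as far as carcinoma-only elements, at 39923 bp. More than 100 kb from the nearest protein-coding 5′ end lay 25.4% of them, 11.7% of shared and 25.9% of carcinoma-only elements. By the position of the summit, introns of protein-coding genes held 53.9% of them, 35.7% lay between genes and 3.98% lay in an exon of a protein-coding gene. They were the poorest in CpG, whose median density per 100 bp was 0.946 in them, 1.45 in shared and 1.05 in carcinoma-only elements. CpG-island-like composition (GC above 50% and an observed-to-expected CpG ratio above 0.6) was found in 21 of them, or 0.177%, against 7.03% of shared and 1.64% of carcinoma-only elements. Repeats made up most of the sequence in 3.05% of them, against 3.51% of shared and 6.89% of carcinoma-only elements.

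The melanoma-only share of distal regions ranged over chromosomes between 32.7% on chromosome 19 and 47.8% on chromosome 18. The nearest region with a 4T1 peak was a median of 4497 bp away, and 233 elements had none within 100 kb. When elements at most 10 kb apart were joined, 1169 stretches of at least 2 held 2591 of them. The 4 stretches with most elements held 6 each and lay within introns near Chga and Itpk1, Sstr2, Enho, and Rwdd3 and Tmem56. A stretch of 5 lay 384 to 409 kb downstream of Sox9, inside a gene that is not protein-coding. In 3 places 11 elements followed each other without any 4T1 region between them, near Fam198b, between Insc and Sox6, and near Rnf144a.

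The elements just inside the distance limit lay 1003 to 1009 bp from Fmod, Dhrs2, Jam3, Olfr543 and Gpx4, and the regions just outside it 973 to 988 bp from Zfp637, Elobl, Dgkq, Glrx5 and Spink8. A further 851 distal regions missed the rule by a call in 1 of the 6 4T1 libraries, and 4208 by a missing call in 1 of the 3 untreated B16F10 libraries. Among the elements, 618, or 5.21%, lay within 1000 bp of the start of another annotated transcript of a protein-coding gene; of these, 533 (86.2%) were called in 3 of 3 DAC-treated libraries and 15 in none, against 78.7% and 3.72% of all elements and 87.5% and 1.72% of all regions called in the untreated libraries. One is the element at chr6:97991088-97991983, 184 kb inside Mitf, at rank 51.8, which was chosen here after its values were seen.

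SOX letters were most frequent in the melanoma-only elements and AP-1 letters in the carcinoma-only ones. Within 200 bp around the summit, 2525 melanoma-only elements, or 21.3%, held a SOX match, against 8.93% of shared and 7.31% of carcinoma-only elements. The SOX share was 27.8% in the strongest of 5 equal groups of the elements by rank and 14.3% in the weakest. AP-1 letters were in 3.09% of melanoma-only, 9.77% of shared and 49.4% of carcinoma-only elements. M-box type letters, a strict form of the sites of MITF, were in 2.79% of melanoma-only, 1.33% of shared and 1.41% of carcinoma-only elements. TFAP2 letters were in 9.44% of melanoma-only, 10.8% of shared and 7.17% of carcinoma-only elements. For E-box letters these shares were 3.44%, 4.07% and 3.08%. The motif of CTCF, the insulator protein, was in 1.19% of melanoma-only, 17.0% of shared and 0.790% of carcinoma-only elements. At 4608 of the 11859 elements none of the 22 motifs searched was found. A match is a string of letters and not a bound site.

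The motif shares were compared between lines over libraries, each taken on its own. In every library the distal peaks that overlapped no peak of the other line were searched, 16615 to 20127 peaks in each B16F10 library and 48776 to 73843 in each 4T1 library, and the 6 B16F10 libraries were set against the 6 4T1 libraries by an exact two-sided permutation test over 924 relabellings, adjusted over the 22 motifs. With 18 motifs past an adjusted p of 0.05, which is 81.8% of those tested, a call is the usual outcome here, and the sizes matter more. SOX letters were in 19.3%, 19.1% and 19.3% of the line-only peaks of DAC-treated and 19.1%, 19.3% and 18.7% of those of untreated B16F10 libraries. In 4T1 the SOX share was 7.64%, 7.63% and 7.63% in DAC-treated and 7.26%, 7.16% and 7.23% in untreated libraries, so that every B16F10 library lay above every 4T1 library (19.2 ± 0.225% in B16F10 against 7.43 ± 0.231% in 4T1, SD, n = 6 each, exact permutation test, adjusted p = 0.0028, from the smallest p that 6 against 6 libraries can give). AP-1 letters were in 2.89% to 3.84% of B16F10-only peaks and in 36.2% to 46.7% of 4T1-only peaks (exact permutation test, adjusted p = 0.0028). The 6 libraries of a line come from 1 cell line, so the test compares these libraries and not melanoma with carcinoma in general.

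Smaller differences followed the same split by line. Of the 18 motifs past an adjusted p of 0.05, 8 were higher and 10 lower in B16F10. M-box type letters were in 2.52 ± 0.0655% of B16F10-only and 1.44 ± 0.0143% of 4T1-only peaks. ETS letters (CAGGAAGT or CCGGAAGT), the core of ETS family sites, were in 5.85 ± 0.104% of B16F10-only against 3.74 ± 0.245% of 4T1-only peaks. LEF/TCF letters (ATCAAAG), bound by the nuclear factors of WNT signalling, were in 3.14 ± 0.0618% of B16F10-only against 2.42 ± 0.206% of 4T1-only peaks. RUNX letters (TGTGGTT or TGTGGTC) were scarcer in the melanoma line, in 9.15 ± 0.115% of B16F10-only against 13.7 ± 1.89% of 4T1-only peaks, and so were the letters of GRHL, the grainyhead factors of epithelia (AACCGGTT or AACCTGTT), in 0.432 ± 0.0368% of B16F10-only against 1.06 ± 0.0787% of 4T1-only peaks (SD, n = 6 each; every one of these 5 differences had an adjusted p of 0.0028 in the exact permutation test). For TEAD (ACATTCC or GCATTCC) and TFAP2 letters the ranges of the 2 lines overlapped when both arms were pooled, with 9.86 ± 0.183% in B16F10-only against 9.36 ± 1.45% in 4T1-only peaks for TEAD (exact permutation test, adjusted p = 0.406) and 8.68 ± 0.199% in B16F10-only against 8.02 ± 1.05% in 4T1-only peaks for TFAP2 (adjusted p = 0.195). PAX3 letters (GTCACGC), of a factor on the regulator list, were among the 10 motifs lower in B16F10. They were in 0.662 ± 0.0749% of B16F10-only against 0.911 ± 0.0808% of 4T1-only peaks (exact permutation test, adjusted p = 0.0028). The 4T1 libraries were split by arm for several motifs, and the SD over 6 libraries includes that split. TEAD letters were in 7.96% to 8.08% of the peaks of DAC-treated and in 10.6% to 10.8% of those of untreated 4T1 libraries, and every B16F10 library, at 9.71% to 10.2%, lay between the 2 arms. TFAP2 letters were in 8.81% to 9.08% in DAC-treated and 7.02% to 7.09% in untreated 4T1 libraries, and the untreated B16F10 libraries, at 8.69% to 8.90%, lay above the untreated 4T1 ones. RUNX averaged 11.96% in DAC-treated and 15.4% in untreated 4T1 libraries, and AP-1 36.5% in DAC-treated and 46.3% in untreated ones.

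**Figure D1:**
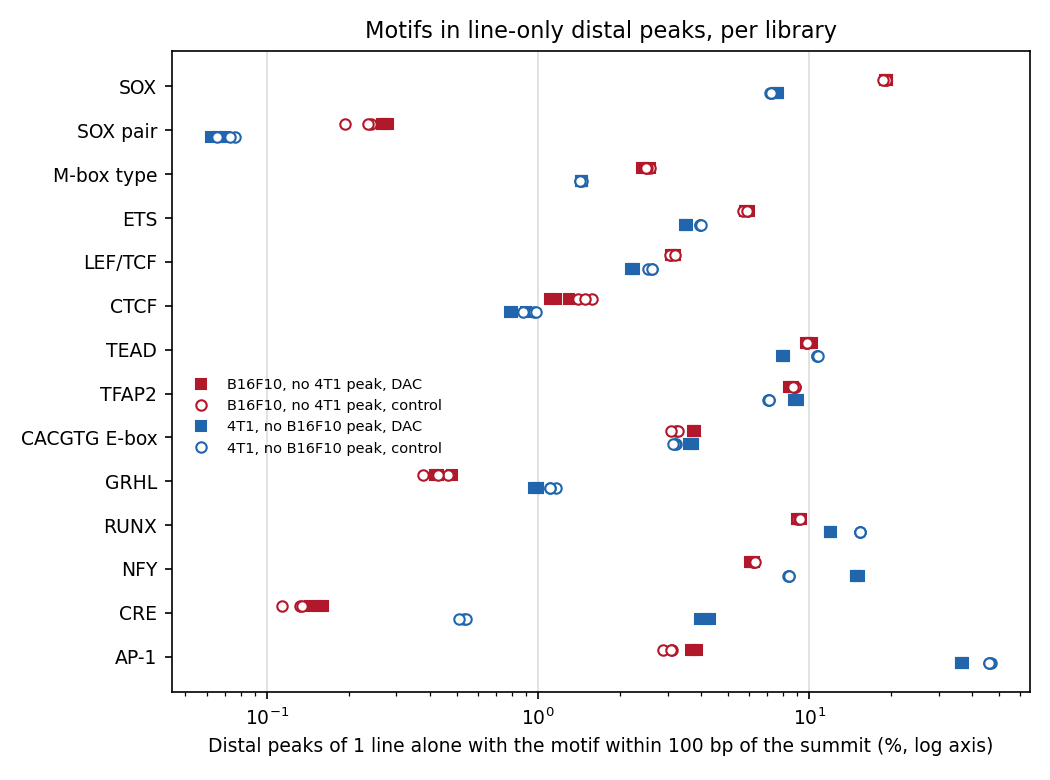
Share of distal peaks found in 1 line alone that hold each motif within 100 bp of the summit, in percent on a log axis, for 14 motifs. Each symbol is a library, red for B16F10 and blue for 4T1, filled squares for DAC-treated and open circles for untreated cells; SOX letters lay near 19% in all 6 B16F10 libraries and between 7.16% and 7.64% in 4T1, and AP-1 letters between 2.89% and 3.84% in B16F10 and at 36.2% or more in 4T1.

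Many genes of the melanocyte lineage had several elements. Of 20 genes of melanin synthesis and the melanosome, 15 were the nearest gene of at least 1 element, against 27.9% of all genes, and 7 were nearest to 3 or more, against 6.13% of all genes. Of 20 melanocyte and neural crest regulators, 16 were nearest to at least 1 and 11 to 3 or more. Lists of other kinds also lay above the share of all genes, with 6 of 8 fibroblast and endothelium genes, 5 of 8 DNA methylation genes and 8 of 20 mammary epithelial genes nearest to at least 1. The distal regions called in untreated B16F10 cells nearest to these genes were melanoma-only in 46 of 73 cases (63.0%) for the melanosome genes and in 92 of 139 (66.2%) for the regulators, against 37.95% over all genes. Of the regions nearest to 20 mammary epithelial genes 17 of 36 (47.2%) were melanoma-only, and for 8 housekeeping genes 1 of 11. These counts come from the contrast that chose the elements and are a description.

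Among the pigment genes Dct, the dopachrome tautomerase of melanin synthesis, was nearest to 10 elements and Tyrp1, a melanin synthesis enzyme, to 7, while Dct was nearest to 1 and Tyrp1 to no carcinoma-only element. Slc24a5, a melanosome ion exchanger gene, was nearest to 6 melanoma-only and 15 carcinoma-only elements, and Mlph and Rab32, which act in melanosome transport and formation, to no melanoma-only and to 5 and 4 carcinoma-only elements. In all, 46 melanoma-only and 38 carcinoma-only elements were nearest to the melanosome genes, and 92 melanoma-only and 156 carcinoma-only elements to the regulators, out of 11859 melanoma-only and 41140 carcinoma-only elements. The strongest melanoma-only element at Tyrp1 lay 13.8 kb upstream and had percentiles of 79.4, 80.3 and 80.3 in DAC-treated and 84.1, 86.6 and 85.5 in untreated B16F10 libraries, so that the 2 groups did not overlap, with DAC lower. The same held for 11.6% of melanoma-only elements and 7.10% of all regions called in all 6 B16F10 libraries. Tyr, which encodes tyrosinase, the rate-limiting enzyme of melanin synthesis, had 1 element, 14.4 kb upstream, with percentiles of 76.61, 80.76 and 79.57 in DAC-treated and 79.59, 81.5 and 81.1 in untreated libraries. No peak was called at the Tyr promoter in any of the 12 libraries. Gpnmb was nearest to 4 elements, of which the strongest, shown above, had percentiles of 98.3, 98.7 and 99.0 in DAC-treated and 97.8, 98.4 and 97.2 in untreated libraries. Mlana had 2, the stronger at 92.1, 91.6 and 92.5 in DAC-treated and 92.7, 96.6 and 95.7 in untreated libraries.

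Among the regulators the SOX genes were nearest to most elements, with 18 elements nearest to Sox6, 14 to Sox5 and 12 to Sox9, while Sox10, the SOX factor of melanocytes, was nearest to 2 and had 7 within 100 kb. The Sox9 elements lay 233 to 409 kb downstream and the strongest had a rank of 99.0, yet the Sox9 promoter was called in no B16F10 library and in all 6 4T1 libraries, and Sox9 was also nearest to 52 carcinoma-only elements. Mitf was nearest to 10 elements, 8 of them called in 3 of 3 DAC-treated libraries. Kit, the receptor of stem cell factor on melanocytes, was nearest to 5 elements and had no promoter call in B16F10. Of the 11 regulators with no promoter call in untreated B16F10 cells, 9 were nearest to elements, 47 in all, and nearness does not show which gene an element acts on.

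**Figure D2:**
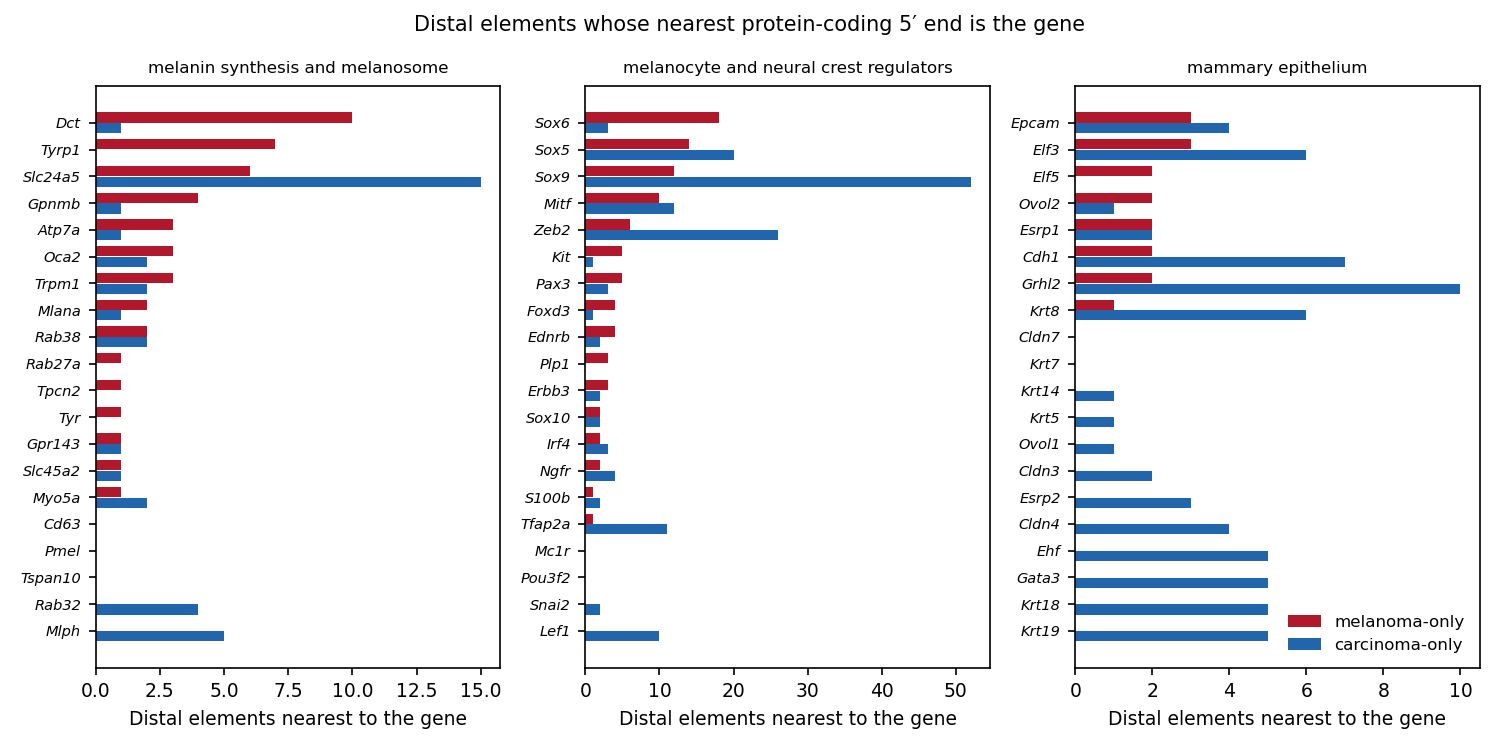
Number of distal elements whose nearest protein-coding 5′ end is the gene, red bars for melanoma-only and blue bars for carcinoma-only elements, for the genes of 3 lists, with axes that differ between panels. Dct had 10 melanoma-only elements and 1 carcinoma-only element, Sox9 had 12 and 52, and 8 of the 20 mammary genes had any melanoma-only element.

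Over all genes the elements were spread widely. They were nearest to 6060 genes, 1334 of which had 3 or more, 424 had 5 or more and 39 had 10 or more, and 57.2% of all genes had an element within 100 kb. The genes with most were Insc, which encodes a spindle orientation adaptor, with 19, Sox6 with 18, Zfp608 with 17, and Xylt1, Sox11 and Qk with 16 each. Rnf144a had 15, Fbxl7, Sox5 and Fam198b had 14, Plxna1, Slc25a13, Vgll3 and Foxc1 had 13, and Sox9 and 10 other genes had 12. The counts were not corrected for the length of DNA to which a gene is nearest.

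Of the 1334 genes with 3 or more elements, 838 had a promoter peak in all 3 untreated B16F10 libraries (49% of all genes did, and 55.9% had one in all 3 untreated 4T1 libraries), and 36 had one there and in no 4T1 library (2.70%, against 1.14% of all genes). In DAC-treated B16F10 cells 833 of the 838 were called in all 3 libraries and none was lost from all 3. Over all genes, 10650 promoters were called in all 3 untreated libraries. Of these, 10537 were called in all 3 DAC-treated libraries and 15 in none, or 0.0689% of all genes. A promoter peak in all 3 DAC-treated and in no untreated library was found at 3 of the 1334 genes, Pdgfa, Wscd1 and Rbfox3, against 0.23% of all genes. A promoter peak was present at 64.5 ± 0.566% of the 1334 genes in DAC-treated and 63.7 ± 0.130% in untreated libraries (SD, n = 3 each), a difference of 0.825 percentage points (exact permutation test, p = 0.10, the smallest that 3 against 3 libraries can give). Over all genes the shares were 50.7 ± 0.437% in DAC-treated and 50.0 ± 0.191% in untreated libraries, and the difference for the 1334 genes was 0.561 points without the second DAC-treated library. With the same number of peaks in every library it was -0.0245 points.

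**Figure D3:**
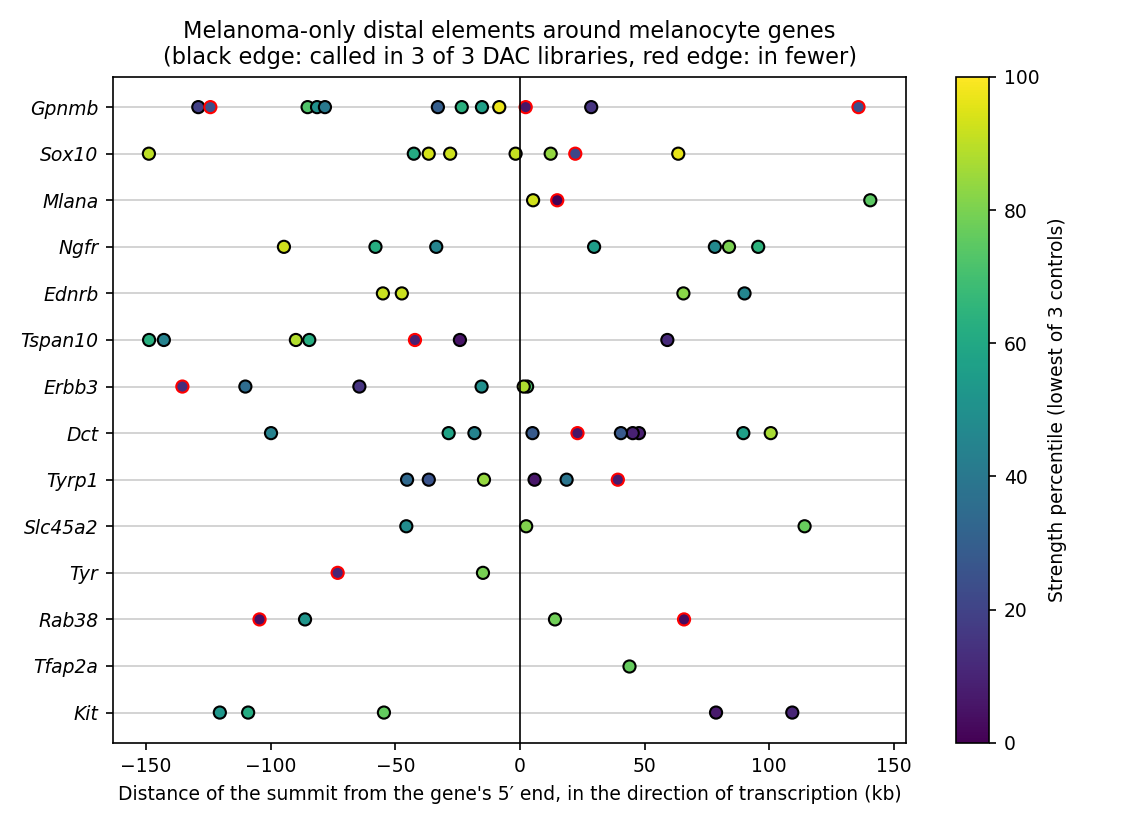
Positions of melanoma-only distal elements around 14 melanocyte genes, as the distance of the summit from the gene's 5′ end in kb in the direction of transcription. Colour gives the strength percentile (lowest of the 3 untreated libraries), a black edge a call in 3 of 3 DAC-treated B16F10 libraries and a red edge a call in fewer; every element with a red edge had a percentile of at most 24.5.

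Most of the elements were called again after DAC. Of the 11859, 9328 (78.7%) had a peak in 3 of 3 DAC-treated B16F10 libraries, against 87.5% of all regions called in the 3 untreated libraries, and 441 (3.72%) had none in any, against 1.72% of all such regions. Shared distal elements were called in 3 of 3 DAC-treated libraries in 90.6% of cases and in none in 0.709%. The share of elements called was 87.4%, 90.8% and 86.702% in the 3 DAC-treated libraries (88.3 ± 2.17%, SD, n = 3). The rule used all 3 untreated libraries, so these shares have no untreated counterpart. When 2 untreated libraries chose the elements, the left-out untreated library called 86.4% to 91.2% of them and the DAC-treated libraries 82.9% to 84.8% on average. For shared elements chosen in the same way the left-out library called 93.0% to 96.2% and the DAC-treated libraries 93.9% to 94.7%.

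The elements with no call after DAC were weak ones. Among elements of rank 0 to 20, 334 of 2929 (11.4%) had no peak in any DAC-treated library, against 3.47% of shared elements of the same rank. At rank 20 to 40 the share was 2.80% of melanoma-only against 1.40% of shared elements, and at rank 40 to 60 it was 0.711% of melanoma-only against 0.184% of shared elements. None of the 2125 elements of rank 60 to 80 and none of the 986 above 80 was lost from all 3, and all of the 986 were called in every DAC-treated library. The strongest elements, nearest to Gsdmc, Oacyl, Dusp6, Mtss1, Pim3, Bahcc1, Eid2, Prickle1 and Optc, had ranks of 99.2 to 99.9 and were called in every DAC-treated library. The strongest, 191 kb downstream of Gsdmc, had percentiles of 99.9 in each of the 3 DAC-treated and each of the 3 untreated libraries.

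**Figure D4:**
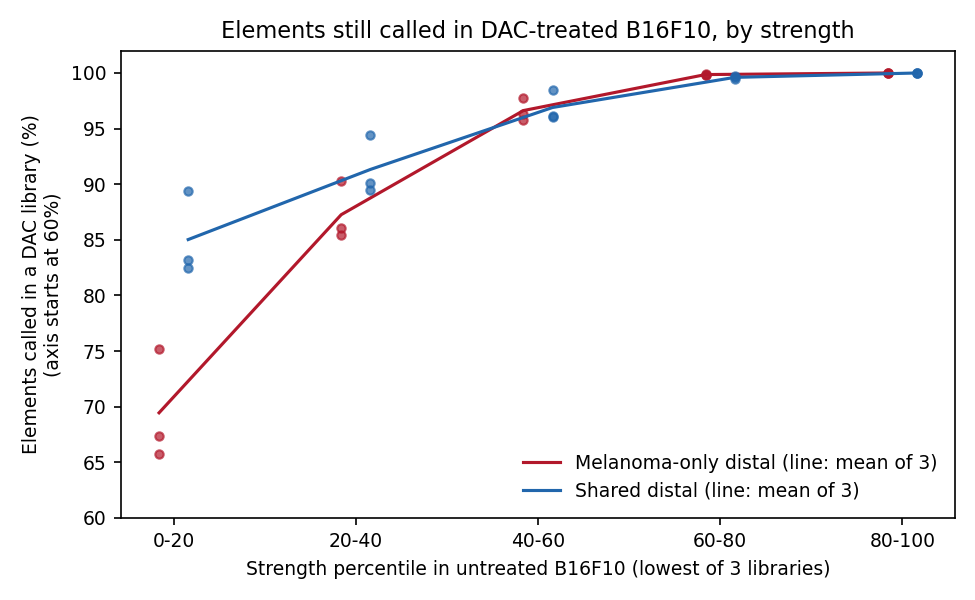
Share of elements called in each DAC-treated B16F10 library, in percent on an axis that starts at 60%, by the strength percentile in untreated B16F10 cells in bins of 20. Dots are the 3 libraries and lines their means, red for melanoma-only and blue for shared distal elements; in the weakest bin 65.7% to 75.2% of melanoma-only and 82.5% to 89.4% of shared elements were called, and above 40 the 2 classes lay together.

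The 441 elements with no call in DAC-treated cells were spread over 426 genes. Of these, 14 genes had 2 or more, with 3 of 16 at Qk, an RNA-binding protein gene, 2 of 2 at Fam160a1 and 2 of 3 at Rbfox3. The strongest of the 441 lay near Tacc2, Nrcam, Zfr, Sphk1, Ccdc90b, Tmcc1, Guca2a, Traf4, Gramd1b and Pard3, at ranks of 44.5 to 58.0. The Tacc2 element shown above had percentiles of 63.2, 58.0 and 61.0 and fold enrichments over local background, as the authors' peak caller gave them, of 6.08, 5.79 and 5.88 in untreated libraries. Of the 441, 13.4% held SOX letters, against 22.8% of those called in 3 of 3 DAC-treated libraries. Among elements of rank up to 31.2 these shares were 12.8% of 398 lost and 18.8% of 2670 kept elements. Repeats made up most of 8.04% of the lost and 3.03% of the kept elements of that rank. Within that limit the median rank was 10.3 for the lost and 19.2 for the kept elements, so strength was not matched between them. Of the elements nearest to melanosome genes 2 of 46 were among the 441, at Gpnmb and Slc24a5, and 40 of 46 were called in 3 of 3 DAC-treated libraries. For the regulators these counts were 2 of 92, at Pax3 and Foxd3, and 79 of 92, beside 3.72% and 78.7% of all elements and 1.72% and 87.5% of all regions. The 4 elements had ranks of 4.08 to 24.5. The count of 441 rests on the number of libraries: it was 761, 939 and 786 when the untreated library of replicate 1, 2 or 3 was left out of the rule, and 813 without the second DAC-treated library.

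A comparison that treats both arms alike took distal regions called in at least 3 of the 6 B16F10 libraries, whichever they were, and in no 4T1 library. Of 17183 such regions, the DAC-treated libraries called 82.8%, 87.7% and 82.0% and the untreated libraries 85.5%, 81.0% and 85.3%. The 2 groups overlapped (84.2 ± 3.09% in DAC-treated against 83.9 ± 2.52% in untreated libraries, SD, n = 3 each, difference 0.227 points, exact permutation test, p = 1). Leaving out a library also tilts the rule towards the other arm: the difference was -2.73, -4.92 and -2.34 points without the DAC-treated library of replicate 1, 2 or 3, and 3.22, 1.05 and 3.16 points without the untreated library of replicate 1, 2 or 3. Of 23321 distal regions called in at least 3 of the 6 B16F10 and at least 3 of the 6 4T1 libraries, the DAC-treated libraries called 89.8%, 94.0% and 89.7% and the untreated libraries 88.5%, 84.7% and 88.7%, with every DAC-treated library above every untreated one (difference 3.86 points, exact permutation test, p = 0.10, the smallest possible).

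The melanoma-only regions lay further below the shared ones in every DAC-treated library than in any untreated one. The gap between the 2 classes was -7.03, -6.27 and -7.72 points in the DAC-treated and -3.07, -3.70 and -3.36 points in the untreated libraries. It was wider by 3.63 points under DAC (-7.01 ± 0.726 points in DAC-treated against -3.38 ± 0.314 points in untreated libraries, SD, n = 3 each), and the exact permutation test gave its smallest possible p, 0.10. The difference was -3.91 points without the second DAC-treated library, -1.80, -2.13 and -1.95 points without the untreated library of replicate 1, 2 or 3, and -0.858 points when at least 5 of 6 libraries had to call a region. The 4T1 libraries that separate the classes include the DAC-treated ones, so a region open after DAC in both lines cannot be melanoma-only and can be shared. The difference was -3.14 to -3.20 points without 1 DAC-treated 4T1 library and -3.93 to -4.02 points without 1 untreated one, and the part of this choice in the difference was not tested further. The shared regions were stronger than the melanoma-only ones; with shared regions weighted to the strength of the melanoma-only ones, a comparison added after the data were seen, the gap was -1.03, -2.17 and -1.58 points in DAC-treated libraries and 5.25, 6.24 and 4.69 points in untreated ones, so that melanoma-only regions then lay above the shared ones in untreated libraries, and the difference was -6.99 points.

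**Figure D5:**
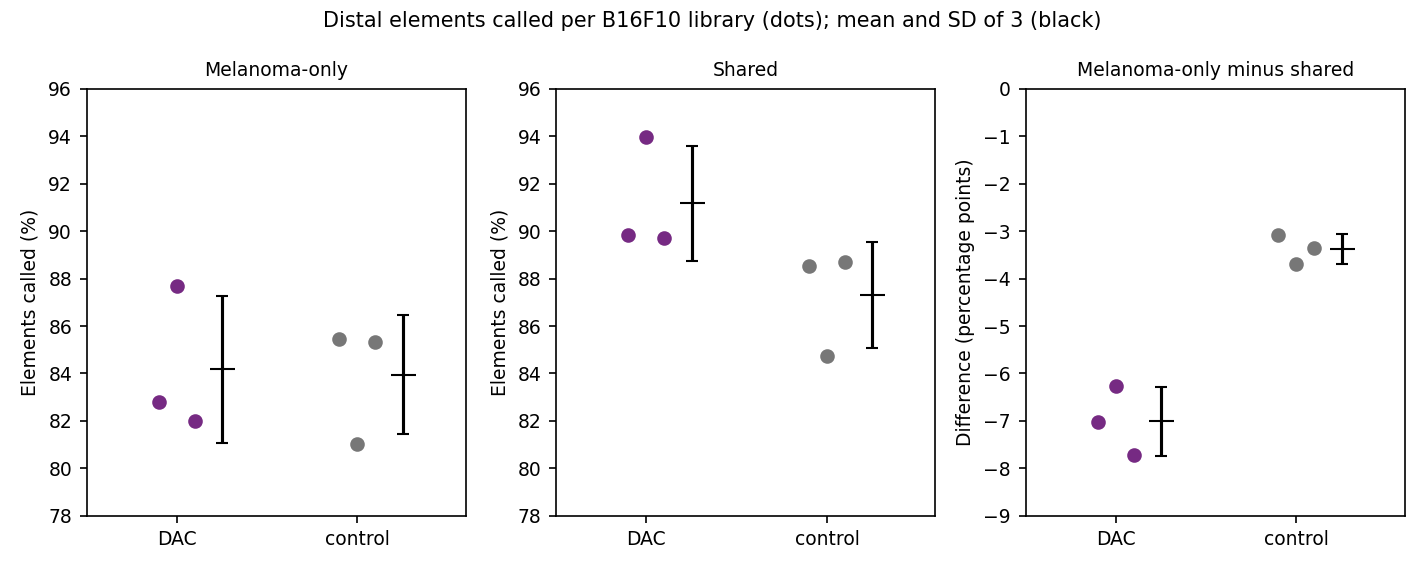
Share of distal regions called in each B16F10 library, for 17183 melanoma-only regions (left) and 23321 shared regions (middle), on axes that start at 78%, and the difference between the 2 classes in percentage points (right). Dots are libraries, DAC-treated to the left of untreated, and black bars the mean and SD of 3; the groups overlap for melanoma-only regions and not for shared regions or for the difference.

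The strength of the elements that stayed called overlapped between arms. For the 9328 called in all 6 B16F10 libraries the median percentile was 53.6, 56.9 and 53.6 in DAC-treated and 53.4, 51.1 and 53.9 in untreated libraries, and the groups overlapped (difference 1.90 points, exact permutation test, p = 0.40). Without the second DAC-treated library the difference was 0.909 points. With the same number of peaks in every library the difference was -1.05 points. With all peaks used, the 13540 shared distal elements called in all 12 libraries had medians of 63.4, 66.2 and 63.5 in DAC-treated B16F10 libraries. In untreated ones they were 62.4, 59.3 and 62.6, without overlap (difference 2.98 points, exact permutation test, p = 0.10, the smallest possible). With each library centred on the median of all 35841 regions called in all 6 libraries, 1111 of the 9328 melanoma-only elements (11.9%) were stronger in every DAC-treated than in every untreated library and 1774 (19.02%) were weaker, against 10.6% and 17.1% of all regions called in all 6. With the same number of peaks in every library 11.9% were stronger and 18.5% weaker, against 12.6% and 12.7% of all regions. Without centring, 1570 elements (16.8%) were stronger and 1083 (11.6%) weaker, against 17.9% and 7.10% of all regions, so the balance of the 2 directions depends on the scaling.

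After centring, 3 of the 40 elements of melanosome genes called in all 6 libraries were stronger in every DAC-treated library and 11 weaker, and 10 of the 79 of the regulators were stronger and 21 weaker, beside 10.6% stronger and 17.1% weaker among all regions under the same centring, which tilts the balance to weaker. At Kit, 3 of 5 were stronger and 1 was weaker. The stronger element in the gene, 78.1 kb from its 5′ end, had percentiles of 57.5, 56.4 and 54.6 in DAC-treated and 6.97, 13.8 and 23.3 in untreated libraries. The stronger one 109 kb downstream of the 5′ end had 38.5, 47.6 and 38.6 in DAC-treated and 19.7, 10.5 and 10.7 in untreated libraries. At Sox5, 3 of 13 were stronger and another was weaker. A stronger element, 525 kb into the gene, had 69.4, 75.1 and 71.4 in DAC-treated and 44.8, 20.2 and 47.4 in untreated libraries. Mitf had elements that shifted in both directions, more of them weaker. At Ednrb, 3 of 4 were weaker, and the element shown above had 88.9, 87.0 and 84.63 in DAC-treated and 92.1, 94.3 and 94.1 in untreated libraries. At Fam198b 7 of 12 were weaker in every DAC-treated library and 2 stronger, and at Insc 6 of 16 were weaker and 1 stronger. These elements were picked after their values were seen.

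Between arms the SOX share of B16F10-only distal peaks overlapped. SOX letters were in 19.3 ± 0.138% of these peaks in DAC-treated and 19.04 ± 0.271% in untreated libraries (SD, n = 3 each, exact permutation test, p = 0.30). For 9 of the 22 motifs (40.9%) the groups did not overlap, 7 with DAC above and 2 below, each at the smallest possible p of 0.10 and an adjusted p of 0.244 in the exact permutation test. AP-1 letters were in 3.72%, 3.84% and 3.66% of the peaks in DAC-treated and 3.11%, 2.89% and 3.09% in untreated libraries. E-box letters (CACGTG) were in 3.76 ± 0.0275% in DAC-treated and 3.20 ± 0.0973% in untreated libraries. The CTCF motif was in 1.19 ± 0.102% in DAC-treated and 1.49 ± 0.0850% in untreated libraries.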

How the data were processed

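ATAC-seq peak lists of 12 libraries were used, 1 per library and each called on its own library. Per the submitters' processing notes, the tools were Bowtie2, ChIPseeker, DiffBind, FastQC, MACS2, MultiQC and Picard and the build was mm10, with no version or role. Which of 2 instrument types read which library is not given in these sources. The authors' peak caller gave every peak a fold enrichment, which is a ratio to local background. Its deposited −log10 p-value holds within 1 library. So does its deposited −log10 q-value. The deposited score is 10 times the −log10 q-value. The summit position is also the authors'. The lists hold no read counts, so depth is unknown and no counting interval can be given.

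Peaks on chromosomes 1 to 19 and X were merged where they overlapped by at least 1 bp (python 3.11.15, numpy 2.4.6, pandas 2.3.3). Sequence was GRCm38, which mm10 names, read with samtools 1.23.1, and genes were those of GENCODE release M21. Strength percentiles rank the −log10 q-value within a library. A total of 22 motifs was sought on both strands in 200 bp around the strongest summit. The difference of group means was set against every relabelling of the libraries (exact permutation test, two-sided), with 20 relabellings for 3 against 3 and 924 for 6 against 6, and Benjamini-Hochberg adjustment over the 22 motifs. The procedure was tested on simulated data. Alternatives were stricter q and fold limits, equal peak numbers, other overlaps, distances and call limits, whole-peak motifs, a replicate block and leaving out each library. The strength-weighted comparison, the centred percentiles and the comparison of the promoter difference between lines were added after the data were seen.

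The elements, gene lists and motifs were chosen with earlier results of these data known. Named are the 10 strongest elements, the 10 strongest without a DAC call, the strongest within 100 kb of melanocyte genes, the stretches with most elements, elements at the distance limit, the 15 genes nearest to most elements and list members. One of the strongest elements is not reported here. The elements whose strength shifted most were named after their values were seen. Lists for leukocytes (2 of 7 B16F10 distal regions melanoma-only), fibroblasts and endothelium (11 of 31), neurons (3 of 10), AP-1 subunits (3 of 19) and DNA methylation genes (8 of 25) were counted in the same way.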

Additional observations from a re-analysis of the deposited data

How the results depend on the processing

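Over all alternatives the elements numbered 10745 to 13753, those called in 3 of 3 DAC-treated libraries 8534 to 9911 and the motifs that differed between lines 15 to 21. The difference of the arm-blind melanoma-only share turned to -1.36 points at a −log10 q of at least 5, -2.36 at a fold enrichment of at least 5, -3.23 with equal peak numbers and -0.858 with at least 5 of 6 libraries, and ranged over left-out libraries between -4.92 and 3.22. The median percentile turned to -0.573 at a fold enrichment of at least 5 and -1.05 with equal peak numbers, the promoter share to -0.0245 with equal peak numbers, and the SOX share between arms to -0.100 in whole peaks. Leaving out a library gave 442 to 939 elements without a DAC call and 9 to 14 motifs whose arms did not overlap, 14 without the second DAC-treated library. The gap between classes kept its direction under every alternative, between -6.99 and -0.858 points. The causes were not tested.

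Same-numbered libraries did not deviate together (correlations -0.0104, -0.0301 and -0.0167 over 35841 regions), so the numbers were not taken as pairs. With the replicate block the differences were the same, 0.227 points for the melanoma-only share (exact permutation, p = 1), -3.63 points for the gap (p = 0.25, the smallest that 8 relabellings allow), 1.90 for the median percentile (p = 0.75) and 0.825 for the promoter share (p = 0.25).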

Other observations

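In 4T1 cells, the promoters of the 1334 genes with 3 or more melanoma-only elements had a peak in 74.9%, 75.8% and 74.5% of cases in DAC-treated and in 66.3%, 66.6% and 66.7% in untreated libraries. Every DAC-treated 4T1 library lay above every untreated one. Over all 21755 genes these shares were 62.1 ± 0.625% in DAC-treated and 56.9 ± 0.226% in untreated 4T1 libraries (SD, n = 3 each). The difference between arms was 8.55 points in 4T1 and 0.825 points in B16F10, and the test of that difference of 7.72 points gave p = 0.10 (exact permutation within each line, 400 relabellings), with doses that differ between the lines. This comparison of the lines was added after the data were seen.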
